A study of Mus musculus with 16 samples.

Results

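The 10 genes described here make, bind or respond to lipid mediators: Pla2g4a, Ptgs1, Ptgs2, Ptges, Ptgis, Hpgds, Alox5ap, Ptger2, Ptger4 and Ptafr. They were chosen by name, with earlier results of these data known. Of the 10, 9 had a probe set among the 19938 genes of the deposited array table. Ptgs1 was not analysed here. The arrays measured mouse embryonic fibroblasts (MEFs) of the C57Bl/6 x 129Sv background in 4 groups of 4 arrays: untreated littermate control MEFs (labelled WT), littermate MEFs given TNFα, untreated SIMPL-/- MEFs (labelled IRAK1BP1 KO, SIMPL being the protein of the Irak1bp1 gene) and SIMPL-/- MEFs given TNFα. Recombinant human TNFα was used at 10 ng/ml for 45 min by the labels and for 1 h by the study's methods. The comparisons ask which genes TNFα changes in each genotype, whether the TNFα response depends on SIMPL, and how the genotypes differ before and after TNFα. By the study's methods the MEFs were prepared from single embryos on 4 separate occasions for each genotype, and the labels do not tie an array to a preparation, so p-values measure the spread between these arrays.

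Lipid mediators are made on demand from membrane phospholipid. Cytosolic phospholipase A2 releases arachidonic acid, which cyclooxygenases turn into a prostaglandin precursor that terminal synthases convert to individual prostaglandins, while the lipoxygenase branch makes leukotrienes, and platelet-activating factor is formed by remodelling of the remaining lysophospholipid. The products leave the cell and act on G protein-coupled receptors, and in fibroblasts the inducible cyclooxygenase and the inducible prostaglandin E synthase are well-known targets of inflammatory cytokines.

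Values are log2 signals, a difference of 1 being a doubling, and a gene was called at a Benjamini-Hochberg adjusted p under 0.05 in a limma fit over all 19938 genes. The probe set of Irak1bp1 read 7.85 to 8.21 in the untreated littermate arrays and 5.16 to 5.62 in the untreated SIMPL-/- arrays, a difference of -2.73 (limma adjusted p = 2.15e-12), and no array went against its genotype label. Arrays of one group correlated at 0.995 or above. Fibroblast markers were bright in every group, with a mean over 15 genes of 12.38 to 12.47 on untreated littermate arrays and 12.01 to 12.07 on untreated SIMPL-/- arrays. The mean of 28 myeloid markers was 9.0 to 9.31 on untreated littermate arrays, 9.06 to 9.48 after TNFα, 7.12 to 7.27 on untreated SIMPL-/- arrays and 7.16 to 7.23 after TNFα, so the genotypes did not overlap in it.

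The promoters of Ptgs2, Ptger4 and Ptafr are shown because Ptgs2 rose with TNFα in both genotypes while the TNFα responses of Ptger4 and Ptafr differed between genotypes. Each is the 250 bases before the annotated start on the gene's strand, 5′ to 3′, from RefSeq on GRCm38.p6, with the letters TTGCNNAA (a C/EBP site) or GAGGAA (a PU.1 site), read on either strand, in capitals. The stretches are chr1:150099781-150100030 on the plus strand for Ptgs2, chr15:5244188-5244437 on the minus strand for Ptger4 and chr4:132563817-132564066 on the plus strand for Ptafr.
Ptgs2: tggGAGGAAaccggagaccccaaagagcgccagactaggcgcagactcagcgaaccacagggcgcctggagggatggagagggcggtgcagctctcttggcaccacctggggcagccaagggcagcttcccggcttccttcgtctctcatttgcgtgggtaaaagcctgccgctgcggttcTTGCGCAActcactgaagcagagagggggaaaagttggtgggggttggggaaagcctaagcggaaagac
Ptger4: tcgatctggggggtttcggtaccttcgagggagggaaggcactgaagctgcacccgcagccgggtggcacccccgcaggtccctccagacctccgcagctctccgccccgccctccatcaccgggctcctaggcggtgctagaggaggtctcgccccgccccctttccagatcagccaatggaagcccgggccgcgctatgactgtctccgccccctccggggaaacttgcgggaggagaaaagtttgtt
Ptafr: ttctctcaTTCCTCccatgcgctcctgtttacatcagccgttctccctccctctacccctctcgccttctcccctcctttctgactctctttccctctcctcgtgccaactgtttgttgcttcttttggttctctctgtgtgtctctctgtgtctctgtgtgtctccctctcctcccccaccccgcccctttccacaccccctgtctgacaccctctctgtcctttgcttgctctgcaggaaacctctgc
In the Ptgs2 stretch the capitals are GAGGAA and, closer to the start, TTGCGCAA. The Ptafr stretch holds TTCCTC, which is GAGGAA on the other strand, and the Ptger4 stretch holds neither motif. The search covered both strands of 300-base windows, 250 bases before to 50 after the start, for 6 motifs that do not contain one another, and 8 of the 10 genes had a window in the table. TTGCNNAA lay in the windows of 3 of the 8 (Ptgs2, Ptger2 and Hpgds) against 10.8% of all 32841 promoter windows. GAGGAA lay in those of 5 of the 8 (Ptgs1, Ptgs2, Ptges, Ptafr and Hpgds) against 28.3%. The NF-κB site was in 0 of the 8 and 4.51% of all windows, TATAAA in 1 (Pla2g4a) and 13.6%, TGACG, a cAMP response element core, in 1 (Ptgs2, past the start) and 20.8%, and TGANTCA, an AP-1 site, in 0 and 7.81%. These are matches of letters in short windows and say nothing of binding.

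**Figure D1:**
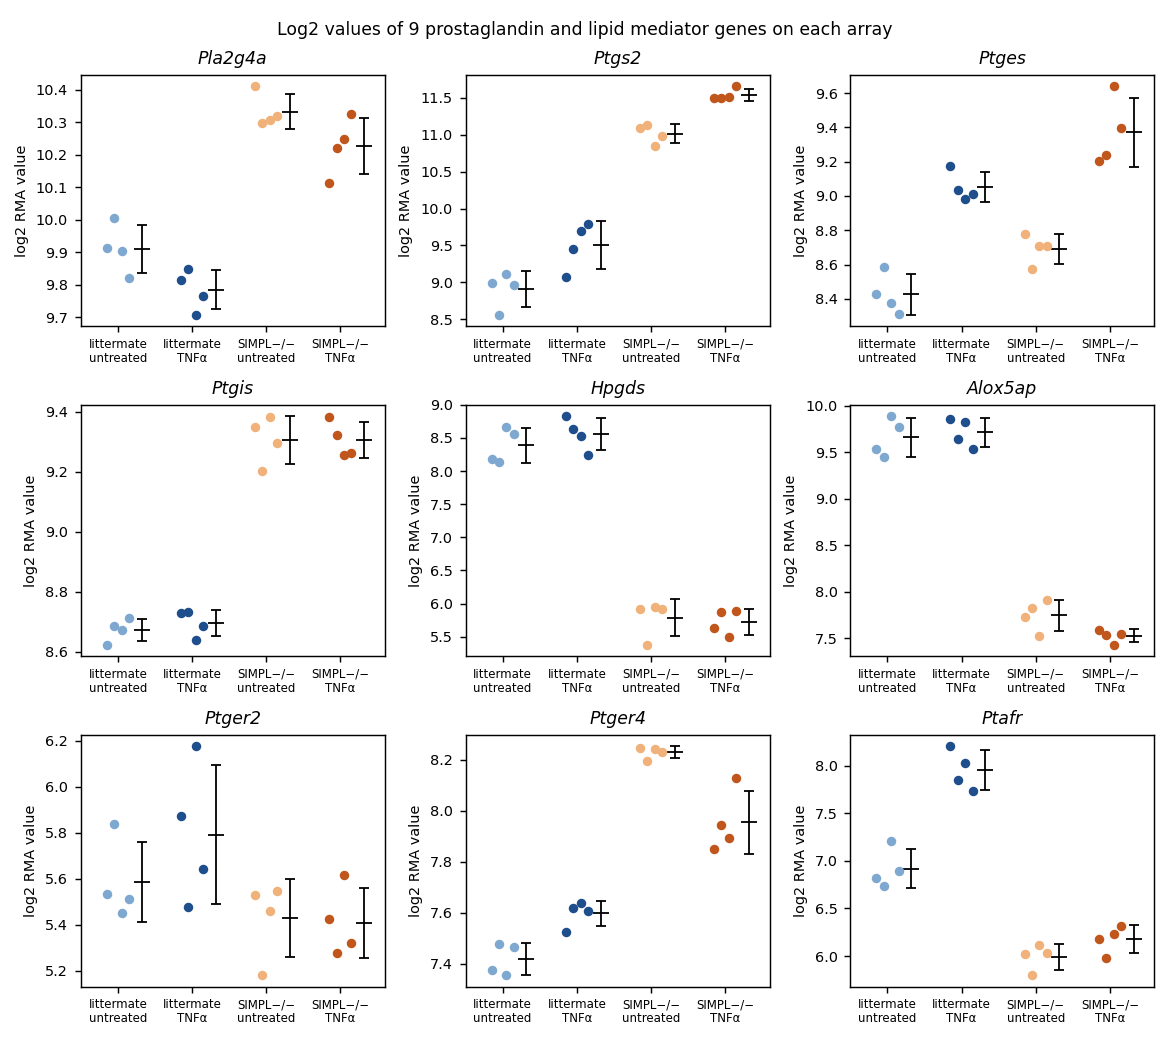
Log2 RMA value (vertical axis, scaled separately for each gene) of the 9 measured genes on each of the 16 arrays, 1 point per array in 4 groups, with the group mean and SD beside the points. Alox5ap, Hpgds and Ptafr sit lower and Ptgs2, Ptgis, Pla2g4a and Ptger4 higher in both SIMPL-/- groups, and Ptges rises with TNFα in both genotypes.

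TNFα raised Ptgs2, Ptges and Ptafr in littermate MEFs and lowered none of the 9 genes. In SIMPL-/- MEFs it raised Ptgs2 and Ptges and lowered Ptger4. The 3 calls of 9 in littermate MEFs stood against 5.15% of all genes called (2.7% higher, 2.45% lower). The 3 of 9 in SIMPL-/- MEFs stood against 3.12% (1.73% higher, 1.39% lower), of which 55.4% were higher as deposited and 73.2% with each array centred on its median. The arrays of the 2 groups did not overlap for 3 of the 9 in each genotype, against 11.4% of all genes in littermate and 9.28% in SIMPL-/- MEFs. The response itself differed between genotypes for 2 of the 9, Ptger4 and Ptafr, against 0.537% of all genes (0.0953% higher, 0.441% lower), and both differences were negative (SIMPL-/- response minus littermate response). The median response of the 9 genes was 0.18 in littermate and -0.0202 in SIMPL-/- MEFs, and the median difference was -0.228, beside 0.00929, -0.0232 and -0.0319 over all genes. These 3 contrasts share arrays.

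Ptgs2, the inducible cyclooxygenase (cyclooxygenase-2), read 9.0, 8.56, 9.12 and 8.96 on the untreated littermate arrays and 9.07, 9.46, 9.70 and 9.79 after TNFα. The lowest treated array lay below the highest untreated one, so the groups overlapped, and the other 3 treated arrays lay above every untreated array. The rise was 0.60 (SE 0.13, limma adjusted p = 0.00871), or 1.51-fold. The untreated SIMPL-/- arrays read 11.10, 11.13, 10.85 and 10.98 and the treated ones 11.50, 11.50, 11.51 and 11.66. Here the groups were separate, and the rise was 0.52 (SE 0.13, limma adjusted p = 0.0313), or 1.44-fold. Ptgs2 thus started higher in SIMPL-/- MEFs and rose from that level. The 2 rises differed by -0.07 (SE 0.18, limma adjusted p = 0.902), with a 95% interval of -0.46 to 0.31 that leaves room for a moderate difference either way. The littermate call was lost when only the 8 compared arrays were fitted (adjusted p = 0.0588, limma) and with the methods' t-test (adjusted p = 0.229). The SIMPL-/- call was lost with quantile normalisation (0.48, adjusted p = 0.052, limma), with trend and robust moderation (adjusted p = 0.0663, limma), and without untreated array 1, 3 or 4 or treated array 1, 2 or 4 of that genotype, at values of 0.47 to 0.55 and adjusted p of 0.0551 to 0.102 (limma).

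Ptges, the inducible microsomal synthase that finishes prostaglandin E2 downstream of Ptgs2, read 8.43, 8.59, 8.38 and 8.31 on the untreated littermate arrays and 9.18, 9.04, 8.98 and 9.01 after TNFα. In SIMPL-/- MEFs it read 8.78, 8.57, 8.71 and 8.71 untreated and 9.20, 9.24, 9.64 and 9.40 treated. Treated arrays lay above all untreated arrays in both genotypes. The rise was 0.62 (SE 0.09, limma adjusted p = 9.5e-05) in littermate MEFs, 1.54-fold, and 0.68 (SE 0.09, limma adjusted p = 5.62e-05) in SIMPL-/- MEFs, 1.6-fold. With the methods' t-test the SIMPL-/- call was lost (adjusted p = 0.0592), and the littermate call was kept. The difference between the rises was 0.05 (SE 0.12, limma adjusted p = 0.892), with a 95% interval of -0.20 to 0.31.

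Ptafr, the receptor for platelet-activating factor, read 6.82, 6.74, 7.21 and 6.89 on the untreated littermate arrays and 8.20, 7.85, 8.03 and 7.73 after TNFα. Every treated array exceeded every untreated one, and the rise of 1.04 (SE 0.11, limma adjusted p = 3.05e-06), 2.05-fold, was the largest among the 9 genes in littermate MEFs. On the SIMPL-/- arrays it read 6.02, 5.80, 6.12 and 6.04 untreated and 6.18, 5.98, 6.23 and 6.32 treated. These 2 groups overlapped, and the response of 0.18 (SE 0.11, limma adjusted p = 0.463) had a 95% interval of -0.05 to 0.41. The SIMPL-/- response was lower than the littermate response by a difference of -0.86 (SE 0.16, limma adjusted p = 0.0117), with a 95% interval of -1.18 to -0.53. Ptafr is among the genes the study itself picked out of these arrays, so this difference is not independent evidence of its direction. By the methods' t-test the adjusted p of the difference was 0.0743, and the mean of Ptafr over all arrays lay below the median gene, so that it was left out of the fit that omitted dim genes. Of the 28 myeloid markers, 2 rose with TNFα in littermate MEFs (7.14%, beside 2.7% of all genes). In SIMPL-/- MEFs 0 rose, beside 1.73% of all genes, and 0 differed in response, beside 0.537%. With shares this low over all genes, such counts say little about 28 markers. The part of the markers in the Ptafr result was not tested.

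Ptger4, a prostaglandin E2 receptor that signals through cAMP, read 7.37, 7.48, 7.36 and 7.46 on the untreated littermate arrays and 7.53, 7.62, 7.64 and 7.61 after TNFα. The treated arrays all lay above the untreated ones, but the difference of 0.18 (SE 0.06, limma adjusted p = 0.102) did not pass. In SIMPL-/- MEFs it read 8.25, 8.20, 8.24 and 8.23 untreated and 7.85, 7.94, 7.89 and 8.13 treated. Here every treated array lay below every untreated one, and Ptger4 fell, at -0.28 (SE 0.06, limma adjusted p = 0.0127). The responses differed by -0.45 (SE 0.08, limma adjusted p = 0.0139), with a 95% interval of -0.63 to -0.28. With each array centred on its median, neither the fall, at -0.24 (adjusted p = 0.0686, limma), nor the difference, at -0.42 (adjusted p = 0.0734, limma), passed. The call of the fall was also lost when only the compared arrays were fitted (adjusted p = 0.0588, limma) and with the methods' t-test (adjusted p = 0.151). The littermate difference passed with quantile normalisation (0.19, adjusted p = 0.0412, limma), with dim genes left out (0.18, adjusted p = 0.0406, limma) and without treated SIMPL-/- array 4 (0.18, adjusted p = 0.0423, limma).

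The other 5 genes had responses that did not pass in either genotype. Ptger2, which like Ptger4 encodes a cAMP-raising prostaglandin E2 receptor, gave 0.21 (limma adjusted p = 0.452) in littermate and -0.02 (limma adjusted p = 0.962) in SIMPL-/- MEFs. Hpgds, a prostaglandin D2 synthase of hematopoietic cells, gave 0.17 (limma adjusted p = 0.631) and -0.06 (limma adjusted p = 0.893). Pla2g4a, the cytosolic phospholipase A2 that frees arachidonic acid, gave -0.13 (limma adjusted p = 0.28) and -0.11 (limma adjusted p = 0.412). For Alox5ap, the protein that presents arachidonic acid to 5-lipoxygenase, the values were 0.05 (limma adjusted p = 0.853) and -0.22 (limma adjusted p = 0.286). Ptgis, the prostacyclin synthase, was the flattest of the 9, at 0.02 and 0.00, with 95% intervals of -0.09 to 0.14 and -0.11 to 0.11. Their differences between genotypes ran from -0.28 for Alox5ap to 0.02 for Pla2g4a, and none passed.

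**Figure D2:**
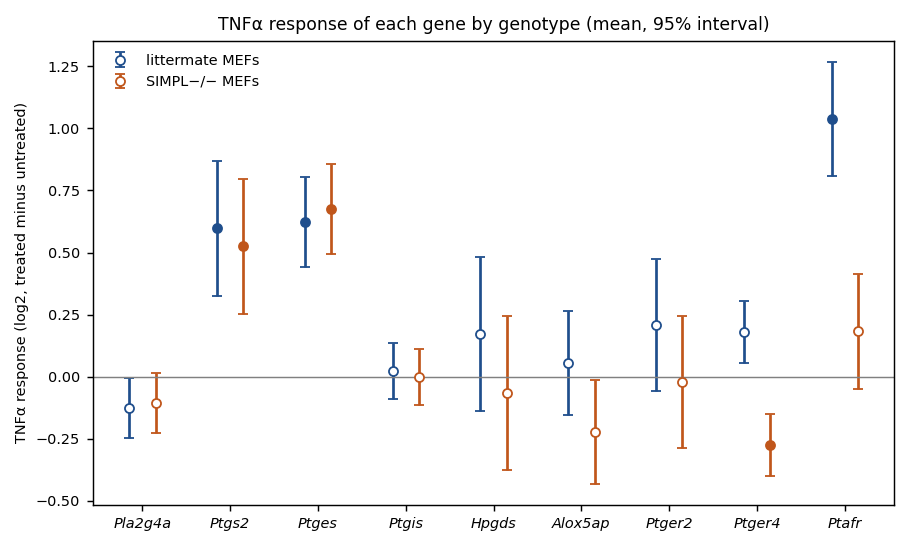
TNFα response (treated minus untreated, log2) of the 9 measured genes in littermate and SIMPL-/- MEFs, with 95% intervals from limma, filled where the gene was called and open where it was not. Ptgs2 and Ptges are filled above 0 in both genotypes, while Ptafr is 1.04 in littermate and 0.18 in SIMPL-/- MEFs and Ptger4 lies on opposite sides of 0.

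Without TNFα, 8 of the 9 genes differed between genotypes, against 40.9% of all genes (23.3% higher, 17.6% lower). Pla2g4a, Ptgs2, Ptges, Ptgis and Ptger4 were higher in SIMPL-/- MEFs, and Ptafr, Alox5ap and Hpgds were lower. After TNFα all 9 measured genes differed, against 36.3% of all genes (17.8% higher, 18.4% lower), with the same 5 higher and Ptger2 added to those lower. The arrays of the genotypes did not overlap for 7 of the 9 untreated and 8 of the 9 treated, against 39.6% and 33.3% of all genes. The median difference over the 9 was 0.267 untreated and 0.32 treated, beside 0.0748 and 0.0309 over all genes. With shares this high over all genes, the sizes are what follows for each gene.

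Pla2g4a, at the head of the pathway, read 9.91, 10.0, 9.90 and 9.82 in untreated and 9.81, 9.85, 9.71 and 9.77 in treated littermate MEFs, and 10.41, 10.30, 10.30 and 10.32 in untreated and 10.11, 10.22, 10.25 and 10.32 in treated SIMPL-/- MEFs. All SIMPL-/- arrays lay above all littermate arrays. It was higher by 0.42 (SE 0.06, limma adjusted p = 1.05e-05) untreated, 1.34-fold, and by 0.44 (SE 0.06, limma adjusted p = 4.89e-06) treated, 1.36-fold.

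Ptgs2 had the largest excess in SIMPL-/- MEFs of the 9 genes. From the array values above, the lowest SIMPL-/- array exceeded the highest littermate array whether or not TNFα had been given. The difference was 2.11 (SE 0.13, limma adjusted p = 2.38e-10) untreated, 4.31-fold, and 2.03 (SE 0.13, limma adjusted p = 3.32e-10) treated, 4.1-fold. Untreated SIMPL-/- MEFs, at 11.02 ± 0.13 (SD, n = 4), lay above TNFα-treated littermate MEFs, at 9.51 ± 0.32 (SD, n = 4), and no array of the 2 groups overlapped.

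Of the terminal synthases, Ptges and Ptgis were higher in SIMPL-/- MEFs and Hpgds was lower. Ptges was higher by 0.27 (SE 0.09, limma adjusted p = 0.0192) untreated, where the genotypes overlapped, and by 0.32 (SE 0.09, limma adjusted p = 0.0063) treated, where they did not. Its untreated call was lost without untreated littermate array 4, at 0.23 (adjusted p = 0.0609, limma), or untreated SIMPL-/- array 1, at 0.24 (adjusted p = 0.0563, limma), and its treated call with the methods' t-test (adjusted p = 0.0787). Ptgis, whose product relaxes vessels and restrains platelets, read 8.62, 8.69, 8.67 and 8.71 in untreated and 8.73, 8.73, 8.64 and 8.69 in treated littermate MEFs, and 9.35, 9.20, 9.38 and 9.29 in untreated and 9.38, 9.32, 9.26 and 9.26 in treated SIMPL-/- MEFs. The genotypes did not overlap, at 0.63 (SE 0.05, limma adjusted p = 1.66e-08) untreated, 1.55-fold, and 0.61 (SE 0.05, limma adjusted p = 2.43e-08) treated.

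Hpgds showed the largest genotype difference of the 9. It read 8.18, 8.14, 8.66 and 8.56 in untreated and 8.83, 8.63, 8.53 and 8.24 in treated littermate MEFs, and 5.91, 5.38, 5.95 and 5.92 in untreated and 5.63, 5.88, 5.50 and 5.89 in treated SIMPL-/- MEFs. Every SIMPL-/- array lay over 2 log2 units below every littermate array. The difference was -2.60 (SE 0.15, limma adjusted p = 7.64e-11) untreated, 6.05-fold lower, and -2.83 (SE 0.15, limma adjusted p = 1.99e-11) treated, 7.13-fold lower. In RNA from whole cultures, fewer cells of a type and less RNA per cell cannot be told apart.

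Alox5ap, needed for leukotriene synthesis in leukocytes, followed the same order. Its values were 9.53, 9.45, 9.89 and 9.78 in untreated and 9.86, 9.64, 9.82 and 9.53 in treated littermate MEFs, and 7.73, 7.82, 7.53 and 7.91 in untreated and 7.59, 7.54, 7.43 and 7.55 in treated SIMPL-/- MEFs. The genotypes were well apart, at -1.91 (SE 0.10, limma adjusted p = 2.11e-11) untreated, 3.76-fold lower, and -2.19 (SE 0.10, limma adjusted p = 2.8e-12) treated, 4.56-fold lower.

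The 3 receptors showed 3 patterns. Ptger4 was higher in SIMPL-/- MEFs by 0.81 (SE 0.06, limma adjusted p = 2.72e-09) untreated, 1.75-fold, and by 0.36 (SE 0.06, limma adjusted p = 8.37e-05) treated, 1.28-fold, the smaller treated gap being the counterpart of the response difference above. Ptafr was lower, at -0.92 (SE 0.11, limma adjusted p = 1.79e-06) untreated, 1.89-fold lower, and -1.78 (SE 0.11, limma adjusted p = 2.08e-10) treated, 3.42-fold lower, with no overlap in either state. Ptger2 read 5.54, 5.84, 5.45 and 5.51 in untreated and 5.87, 5.48, 6.18 and 5.64 in treated littermate MEFs, and 5.53, 5.18, 5.46 and 5.55 in untreated and 5.42, 5.28, 5.62 and 5.32 in treated SIMPL-/- MEFs. The genotypes overlapped in both states. The untreated difference of -0.16 (SE 0.13, limma adjusted p = 0.335) did not pass and had a 95% interval of -0.42 to 0.11. The treated difference of -0.38 (SE 0.13, limma adjusted p = 0.0231) passed but was lost without treated littermate array 1 or 3 or treated SIMPL-/- array 2 or 4, at -0.26 to -0.36 and adjusted p of 0.0568 to 0.101 (limma).

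Marker lists of cell types were also compared between the genotypes, beside 40.9% of all genes called untreated and 36.3% treated. Of the 28 myeloid markers, 26 were lower in untreated SIMPL-/- MEFs (92.9%) and 27 after TNFα (96.4%), with median differences of -2.02 and -2.13. Cd68, a macrophage lysosomal protein, went from 11.34 ± 0.14 in untreated littermate to 8.38 ± 0.04 in untreated SIMPL-/- MEFs (SD, n = 4), and Lyz2, lysozyme, from 12.01 ± 0.10 to 10.19 ± 0.10. Hpgds, Alox5ap and Ptafr are known from hematopoietic cells, and the part of the myeloid markers in their differences was not tested. The 9 mast cell markers had means of 4.84 to 4.90 on untreated littermate and 4.96 to 5.01 on untreated SIMPL-/- arrays, with 3 higher and 1 lower. After TNFα the means were 4.88 to 4.99 and 4.92 to 4.98, with 1 higher and 1 lower. The shares called were 44.4% untreated, close to that of all genes, and 22.2% treated, below it. The 7 epithelial markers had means of 6.30 to 6.47 and 7.19 to 7.57 untreated and of 6.37 to 6.64 and 7.22 to 7.27 treated. Of these markers, 5 were higher in untreated (71.4%) and 3 in treated SIMPL-/- MEFs (42.9%). The median difference of these 7 was 0.435 untreated and 0.0405 treated. The untreated median was that of Krt5, which read 7.23, 5.86, 5.48 and 5.80 on the untreated SIMPL-/- arrays. Krt14 was also highest on array 1 of that group, at 8.64 against 7.74 to 7.91 on the others. The untreated median and the upper end of the means, 7.57, thus lean on 1 array. The keratins Krt8, Krt14 and Krt18 were the 3 called in both states, Krt18 at 2.13 (limma adjusted p = 3.41e-13) untreated. The 9 endothelial markers had means of 5.91 to 6.05 and 6.17 to 6.20 untreated and of 5.97 to 6.23 and 6.16 to 6.21 treated. Untreated, 3 were higher and 0 lower (33.3%), and treated, 3 were higher and 2 lower (55.6%). Of the 15 fibroblast markers 10 were lower and 2 higher in each state (80%). Their means after TNFα were 12.36 to 12.41 in littermate and 11.96 to 12.05 in SIMPL-/- MEFs. For Ptgs2, Ptges, Ptgis, Pla2g4a and Ptger4 the part of these lists was likewise not tested. An RMA table holds no zeros, so no marker was listed at 0.

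**Figure D3:**
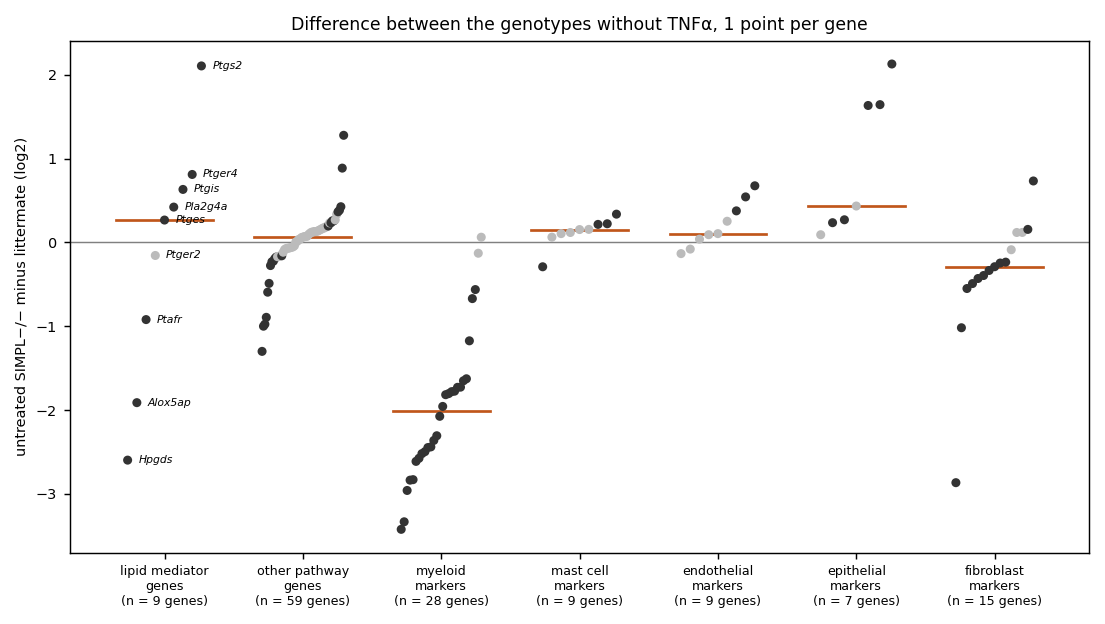
Difference between untreated SIMPL-/- and littermate MEFs (log2, vertical axis), 1 point per gene, for the 9 lipid mediator genes, 59 other genes of the pathway and 5 marker lists, dark where limma called the gene and light where it did not, with the median of each list as a line. The 9 genes run from -2.60 (Hpgds) to 2.11 (Ptgs2), and the myeloid markers have a median of -2.02.

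The wider pathway list held 65 further genes, of which 59 were measured. In littermate MEFs TNFα raised 1 of the 59 and lowered 0, beside 2.7% and 2.45% of all genes. That gene was Ltc4s, the leukotriene C4 synthase, which went from 6.68 ± 0.10 to 6.96 ± 0.03 (SD, n = 4), a rise of 0.28 (limma adjusted p = 0.0152). In SIMPL-/- MEFs 0 rose and 4 fell, beside 1.73% and 1.39% of all genes, and the 4 calls became 1 when only the compared arrays were fitted and 0 with the methods' t-test. Ptgfr, the prostaglandin F receptor, went from 7.23 ± 0.17 to 6.78 ± 0.15 (SD, n = 4) and fell, at -0.46 (limma adjusted p = 0.00601). Tbxa2r, the thromboxane receptor, fell at -0.34 (limma adjusted p = 0.0179), and Cysltr2, a cysteinyl leukotriene receptor, at -0.22 (limma adjusted p = 0.0352) from a low level of 3.59 ± 0.03. Dpep1, a membrane dipeptidase that trims leukotriene D4, fell at -0.51 (limma adjusted p = 0.0115).

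Of the 59, only Ltc4s differed in its TNFα response, at -0.42 (limma adjusted p = 0.0459), and that call was lost in 12 of 16 fits that each left out 1 array, at adjusted p up to 0.12 (limma). For the 4 genes that fell in SIMPL-/- MEFs the difference in response did not pass, from -0.55 (limma adjusted p = 0.145) for Dpep1 to -0.23 (limma adjusted p = 0.241) for Cysltr2. The falls of Tbxa2r, Cysltr2 and Dpep1 were each lost in several such fits, 5, 7 and 2 of 16 in that order, and the rise of Ltc4s without untreated littermate array 1 (0.25, adjusted p = 0.0631, limma) or 2 (0.25, adjusted p = 0.0575, limma). The fall of Ptgfr kept its call in all 16.

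Between untreated genotypes 9 of the 59 were higher and 12 lower in SIMPL-/- MEFs, 35.6%, and after TNFα 7 were higher and 14 lower, again 35.6%, in both cases close to the share over all genes. Slco2a1, the transporter that takes prostaglandins into cells, was higher, at 1.28 (limma adjusted p = 6.18e-09) untreated and 1.41 (limma adjusted p = 1.47e-09) treated. Cysltr1, the main cysteinyl leukotriene receptor, was lower, at -1.30 (limma adjusted p = 1.55e-06) and -1.21 (limma adjusted p = 3.05e-06). Tbxas1, thromboxane synthase, was lower at -0.89 (limma adjusted p = 1.17e-06) and -0.89 (limma adjusted p = 1.04e-06). The dipeptidases split, Dpep1 being higher, at 0.89 (limma adjusted p = 2.76e-06), and Dpep2 lower, at -1.0 (limma adjusted p = 7.08e-07), in the untreated state. A second, dimmer probe set of Dpep2 gave -0.43 (limma adjusted p = 0.00389) untreated and -0.21 (limma adjusted p = 0.144) treated.

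Of the 7 measured genes that make or break down platelet-activating factor, the ligand of Ptafr, none was higher in SIMPL-/- MEFs and 3 were lower in each state, a share of 42.9% close to the 40.9% untreated and 36.3% treated of all genes called, with medians of -0.159 untreated and -0.156 treated. Lpcat2, which acetylates lyso-platelet-activating factor, was lower at -0.98 (limma adjusted p = 1.56e-06) untreated and -1.46 (limma adjusted p = 6.05e-09) treated. Pla2g7, the secreted hydrolase that inactivates the mediator, was lower at -0.59 (limma adjusted p = 5.49e-05) and -0.81 (limma adjusted p = 1.05e-06). None of the 7 was called for TNFα in either genotype. Of 17 other phospholipases A2, 1 was higher and 1 lower in each state, a share of 11.8% beside 40.9% and 36.3% of all genes, and none passed for TNFα.

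**Figure D4:**
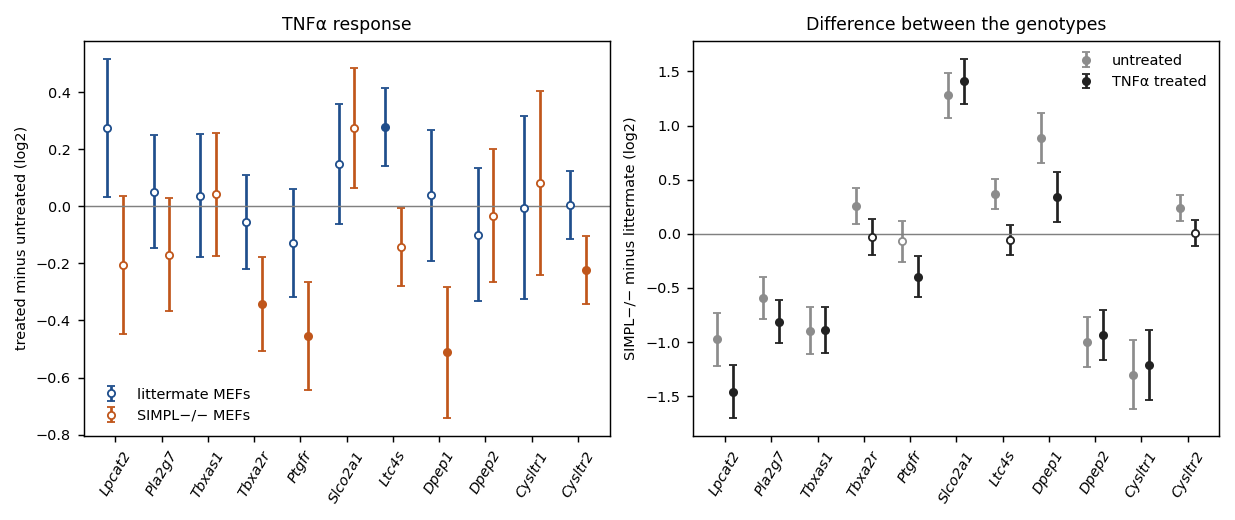
Log2 differences with 95% intervals from limma for the 11 named genes of the wider pathway, on the left the TNFα response in littermate and SIMPL-/- MEFs and on the right the difference between genotypes untreated and treated, filled where called and open where not. On the left only Ltc4s is filled for littermate MEFs, and on the right Lpcat2, Pla2g7, Tbxas1, Dpep2 and Cysltr1 lie below 0 and Slco2a1 and Dpep1 above it in both states.

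Patterns across the 16 arrays were compared by the root mean square difference of values centred on each gene's own mean, as a description. The genes nearest to Ptger4 were Ugcg (0.0923), Runx1 (0.0943) and Coq3 (0.114). Runx1, a hematopoietic transcription factor, had a littermate response of 0.06 and a SIMPL-/- response of -0.264, and Ugcg, glucosylceramide synthase, 0.26 and -0.0941. The genes nearest to Ptafr were Ccl9 (0.177), Igsf6 (0.192) and Mcoln2 (0.203). Calls of these neighbouring genes for a difference in response are not given here. Ccl9, a chemokine, had responses of 0.646 in littermate and 0.18 in SIMPL-/- MEFs and an untreated genotype difference of -1.12.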

How the data were processed

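RNA of 16 MEF cultures was hybridised to Affymetrix Mouse Gene 1.0 ST arrays. The authors deposited log2 values for 28853 probe sets, which the submitters' processing notes call RMA values (robust multi-array averaging) made with Partek. The study's methods name Affymetrix Microarray Suite instead, and no version or genome build of the table was given in the sources used here. RMA draws dim signals toward background, so differences of dim genes are understated. Arrays have no read depth, and the 4 arrays of each group limit the precision.

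A probe set was used where the annotation paired it with 1 gene symbol (21789, with 1621 paired with several and 5443 with none), and the brightest stood for a gene, giving 19938 genes, of which 19856 were matched by gene ID to RefSeq. Each of the 9 genes had 1 probe set. limma 3.58.1 (R 4.3.3) fitted 1 mean per group over all 16 arrays with eBayes, and 5 contrasts were tested two-sided with Benjamini-Hochberg adjustment over all genes. The fit was tested on simulated data. The genes, the pathway list, the marker lists and the motifs were chosen with earlier results of these data known. Besides the 9 genes, the text names up to 6 called pathway genes per contrast with the largest differences, the 3 genes nearest in pattern to each gene called in the difference between responses, and up to 4 of the brightest markers per list. Alternatives were median centring, quantile normalisation, omission of dim genes, other treatment of probe sets, other moderation, array weights, the methods' t-test, a fit of only the arrays compared, stricter thresholds and omission of each array in turn. Array numbers only name arrays within a group.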

Additional observations from a re-analysis of the deposited data

Results flagged for a closer look

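In 36 groups of 4 arrays (9 genes in 4 groups) the farthest array was compared with the rest by Dixon's ratio, whose critical value chance exceeds in about 1 in 20 groups, and 2 groups exceeded it. For Ptgs2 in TNFα-treated SIMPL-/- MEFs, array 4 lay above the other 3 with a ratio of 0.936, over a range of 11.5 to 11.66. For Hpgds in untreated SIMPL-/- MEFs, array 2 lay below the other 3 with a ratio of 0.941, at 5.38 against 5.91 to 5.95.

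Both genes whose TNFα response differed between the genotypes in the test of that difference were receptors. The receptor Ptger2 was not called in that test (limma adjusted p = 0.619). Nor was any of 7 further prostanoid receptors or of 4 leukotriene and lipoxin receptors. For Ptger4 the difference was -0.4549 (limma adjusted p = 0.0139), with all 4 treated arrays above the untreated ones in littermate MEFs and all 4 below them in SIMPL-/- MEFs. For Ptafr it was -0.8551 (limma adjusted p = 0.0117), with littermate arrays separate and SIMPL-/- arrays overlapping.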

How the results depend on the processing

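No paired analysis was possible because the labels give no number that links arrays across groups. Over 11 alternative settings, 602 of 662 values kept their direction and side of the threshold, 52 lost the call, 2 gained it and 6 changed sign, and over the 16 fits that each left out 1 array, 945 of 1008 did, with 40 lost, 1 gained and 22 changed in sign. Every change of sign was in a value near 0 that was not called. For Ptgis in SIMPL-/- MEFs the response was 0.0301 with median centring, -0.0116 with quantile normalisation and 0.0032 with array weights, and its difference between responses 0.0126 with centring. The SIMPL-/- response of Ptger2 was 0.0099 with centring, and the difference of Pla2g4a -0.0049 with quantile normalisation. Leaving out single arrays gave ranges of -0.0169 to 0.1306 for the littermate response of Alox5ap, of -0.035 to 0.0251 (Ptgis), -0.1028 to 0.0246 (Ptger2) and -0.2016 to 0.0109 (Hpgds) for SIMPL-/- responses, and of -0.2165 to 0.0434 (Ptgs2), -0.0382 to 0.1083 (Ptges), -0.0584 to 0.0017 (Ptgis) and -0.0114 to 0.0586 (Pla2g4a) for the difference between responses. Of the 9 genes, 2 were called for a difference between responses. This became 1 with median centring (Ptafr), without dim genes (Ptger4, Ptafr not being tested) and with the unmoderated t-test of that contrast (Ptger4). It was 1 at a fold over 1.5 with p under 0.001 (Ptafr), and 0 at a limma adjusted p under 0.01. The 3 calls in SIMPL-/- MEFs became 1 with the methods' t-test (Ptgs2), at the fold and p thresholds (Ptges) and at an adjusted p under 0.01 (Ptges), and the 9 calls between treated genotypes became 7 with the methods' t-test and 5 at the fold and p thresholds. The 3 littermate calls became 2 with the methods' t-test (Ptges and Ptafr). The causes were not tested. Ptger2 and Ptafr lay below the median gene, where signal over background limits what small differences can show.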

Other observations

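Lists of cell types that stand in no result above gave these values. Of 5 smooth muscle markers, 3 were higher in untreated SIMPL-/- MEFs and 4 after TNFα. These were 60% and 80%, beside 40.9% and 36.3% of all genes called. The means were 10.35 to 10.46 on untreated littermate arrays and 10.79 to 10.86 on untreated SIMPL-/- arrays. Cnn1, calponin, was higher by 0.97 untreated and 1.18 treated (limma adjusted p = 6.08e-10 and 3.6e-11), and Tagln, transgelin, by 0.68 and 0.77 (limma adjusted p = 9.52e-09 and 1.5e-09). The 6 lymphoid markers had median differences of 0.142 untreated and 0.023 treated, and limma called none of them. Of 4 platelet and megakaryocyte markers, Pf4, platelet factor 4, was lower by a difference of -1.92 untreated (limma adjusted p = 4.19e-09) and -2.30 treated (limma adjusted p = 2.89e-10). Of the other 3 none was called untreated, and 1 was called higher in treated SIMPL-/- MEFs.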
